A study of Mus musculus with 12 samples.

Results

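AP-1 is the family of transcription factors built from Jun, Fos, Batf and related basic leucine zipper (bZIP) proteins, and its 10 genes Fos, Fosb, Fosl1, Fosl2, Jun, Junb, Jund, Batf, Batf3 and Jdp2 were followed here across 4 states of mouse macrophages. Each gene was taken as the row of the expression table that carries its symbol; all 10 were found among 24346 genes, and 8 of the 10 passed the filter on low values that 10311 genes passed. The cells were macrophages that had been differentiated from bone marrow over 7 days in medium with M-CSF (macrophage colony-stimulating factor) and 10% serum. All 12 libraries came from cells with the genotype label WT, and there were 3 libraries in each of 4 groups. The control group had no treatment. The LPS group received lipopolysaccharide (LPS), an outer membrane glycolipid of Gram-negative bacteria and the ligand of TLR4, at 1 ng/ml for 3 h. The Tm group received tunicamycin (Tm), an inhibitor of N-linked glycosylation that causes endoplasmic reticulum (ER) stress, at 5 ug/ml. The Tm_LPS group received tunicamycin at 5 ug/ml for 3 h before LPS at 1 ng/ml for 3 h. The sources used here do not give the exposure time of the Tm group, whether tunicamycin remained during LPS, the strain and age of the mice, or the origin of the replicates as separate mice or dishes. The p-values therefore measure only the spread between these samples, which may be technical. If the Tm and Tm_LPS groups differed in tunicamycin exposure, that cannot be told apart from LPS when these groups are compared. Per its title the study asked how ER stress alters the inflammatory response.

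The values are FPKM, fragment numbers divided by transcript length and library size, so that levels can be compared between genes per length. Summed FPKM was 561108 to 685010 per library, 9507 to 9741 genes reached 1 FPKM, and the read depth is unknown. Each fold change was computed from log2(FPKM + 1), a scale that understates the change of low genes, and is given with its standard error (SE). A gene passed at an adjusted p under 0.05 in limma, a linear model fitted over all 10311 genes. The 8 macrophage markers, among them Adgre1 and Csf1r, were present in every group, with a summed level of 14464 to 24168 FPKM. Most of that sum was Lyz2 (9193 to 18966 FPKM). With LPS 1 passed as higher and 1 as lower, where 18.4% of all genes passed. With tunicamycin 1 passed as higher and 3 as lower, where 34.5% passed. From control to LPS mean Cd14 went from 288 to 1595 FPKM and Mertk from 11.4 to 3.25. From control to tunicamycin Fcgr1 went from 32.7 to 14.1 FPKM and Cd68 from 4298 to 2886. The lists for mast cells, red cell precursors, lymphocytes and NK cells each summed to at most 3.12 FPKM in any library. Of 6 T and NK cell markers, Cd8a, Ncr1 and Klrb1c were listed at 0 in all libraries. Of 5 B-lineage markers, Ms4a1 was listed at 0 in all libraries, as was Cpa3 of 5 mast cell and basophil markers. Other markers of these lists were not, with Cd4 at up to 1.45 FPKM, Cd79b at up to 3.12 and Mcpt8 at up to 1.00. Neutrophil markers (7 measured) summed to 86.7 to 126 FPKM in control, 190 to 316 with LPS, 14.3 to 25.8 with tunicamycin and 17.1 to 31.7 with both. Stromal markers (7 measured) summed to 16.4 to 25.6 FPKM in control, 21.5 to 27.5 with LPS, 32.9 to 49.1 with tunicamycin and 24.7 to 59.5 with both. None of the 7 stromal markers was listed at 0 in a whole group, and of the neutrophil markers Elane was with tunicamycin and Mpo with both agents. Of 5 neutrophil markers tested, 3 passed as higher with LPS and 3 as lower with tunicamycin. Of 6 stromal markers tested, 0 passed with LPS and 4 passed as higher with tunicamycin. The shares of all genes that passed are those given above, 18.4% with LPS and 34.5% with tunicamycin. The part of these lists in the AP-1 values below was not tested. In such bulk samples fewer cells of a type and less RNA per cell cannot be told apart.

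AP-1 proteins act as dimers. Jun proteins pair with each other or with Fos proteins, Fos proteins need a partner, and the dimers bind DNA at the sequence TGACTCA or, with ATF-type partners, at the related TGACGTCA. Fos and Jun are immediate early genes, induced within minutes of a stimulus through MAP kinases and then rapidly shut off, while Junb, Batf and Jdp2 can temper transcription by Fos and Jun or direct it elsewhere. In macrophages AP-1 acts with NF-kB and with lineage factors at cytokine and matrix protease genes.

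The sequences just before the start sites of 5 of these genes are shown because the genes split into a pair that went down with either agent (Jun and Fos) and 3 that went up with either agent (Junb, Batf and Jdp2). They are from the RefSeq promoter table on GRCm38.p6 (mm10), which held 9 of the 10 members. Bases before the earlier of the RefSeq and GENCODE gene starts are printed 5′ to 3′ on the gene's strand, and capitals mark matches to the motifs named below. Jun is from chr4:95052223-95052472, minus strand. Fos is from chr12:85473640-85473889, plus strand. Junb is from chr8:84978749-84978998, minus strand. Jdp2 has 3 start sites in the table, and the bases before the earliest are from chr12:85598855-85599026, plus strand. The 30 bases around a match before the second Jdp2 start are from chr12:85599372-85599401, plus strand, within the gene but outside annotated exons. Batf is from chr12:85686470-85686668, plus strand.
Jun: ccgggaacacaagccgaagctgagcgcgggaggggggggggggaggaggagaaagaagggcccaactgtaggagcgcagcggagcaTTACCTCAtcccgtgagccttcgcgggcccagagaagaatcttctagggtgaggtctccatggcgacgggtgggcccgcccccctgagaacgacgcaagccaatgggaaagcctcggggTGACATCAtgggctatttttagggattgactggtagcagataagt
Fos: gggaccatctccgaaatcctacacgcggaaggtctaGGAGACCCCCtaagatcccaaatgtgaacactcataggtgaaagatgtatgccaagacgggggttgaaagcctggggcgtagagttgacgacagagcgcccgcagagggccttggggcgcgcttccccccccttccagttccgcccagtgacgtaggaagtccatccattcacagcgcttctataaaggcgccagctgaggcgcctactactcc
Junb: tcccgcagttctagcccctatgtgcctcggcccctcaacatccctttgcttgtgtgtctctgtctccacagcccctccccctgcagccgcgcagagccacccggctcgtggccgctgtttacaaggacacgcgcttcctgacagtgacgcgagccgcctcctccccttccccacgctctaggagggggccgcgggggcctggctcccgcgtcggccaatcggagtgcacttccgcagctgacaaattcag
Jdp2, first start: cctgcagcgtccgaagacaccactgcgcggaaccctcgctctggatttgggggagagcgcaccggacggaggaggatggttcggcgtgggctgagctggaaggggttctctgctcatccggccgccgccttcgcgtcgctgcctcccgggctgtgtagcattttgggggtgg
Jdp2, second start: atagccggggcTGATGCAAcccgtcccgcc
Batf: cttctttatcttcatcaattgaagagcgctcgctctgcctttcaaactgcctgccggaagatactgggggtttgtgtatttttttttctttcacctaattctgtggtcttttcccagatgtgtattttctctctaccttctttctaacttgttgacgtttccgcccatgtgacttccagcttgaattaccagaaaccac

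In all, 10 motifs were searched on both strands of the 300-base windows (250 bases before the start and 50 after). The Jun window held TTACCTCA with its first base 164 bases before the start and TGACATCA 45 bases before it, which are the AP-1-like elements through which Jun is known to respond to Jun-ATF2 dimers. Of all 27025 genes with a window, 1.03% held TTACCTCA and 4.18% held TGACATCA. The window of the second Jdp2 start held TGATGCAA, the core of the C/EBP-ATF element known from ATF4 target genes, 33 bases before the start; 1.03% of genes held it. An NF-kB site was matched in Fos, 214 bases before the start, in Fosb and Fosl2, and in the third Jdp2 window, 226 bases before that start, while 9.55% of genes held a match. GAAA followed after any 2 bases by GAAA, the core of an interferon response element, was matched in Fosl2 (3.99% of genes) and TTCNNNGAA in Batf3 (9.55%). TGACTCA (5.95% of genes), TGACGTCA (2.03%), the CArG box (1.81%) and the ER stress element, which is CCAAT and CCACG with 9 bases between them (0.137%), were not in the windows of these members. No match overlapped a match of another motif. A match is a description of letters only, and no match says only that the letters are not in this window.

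**Figure D1:**
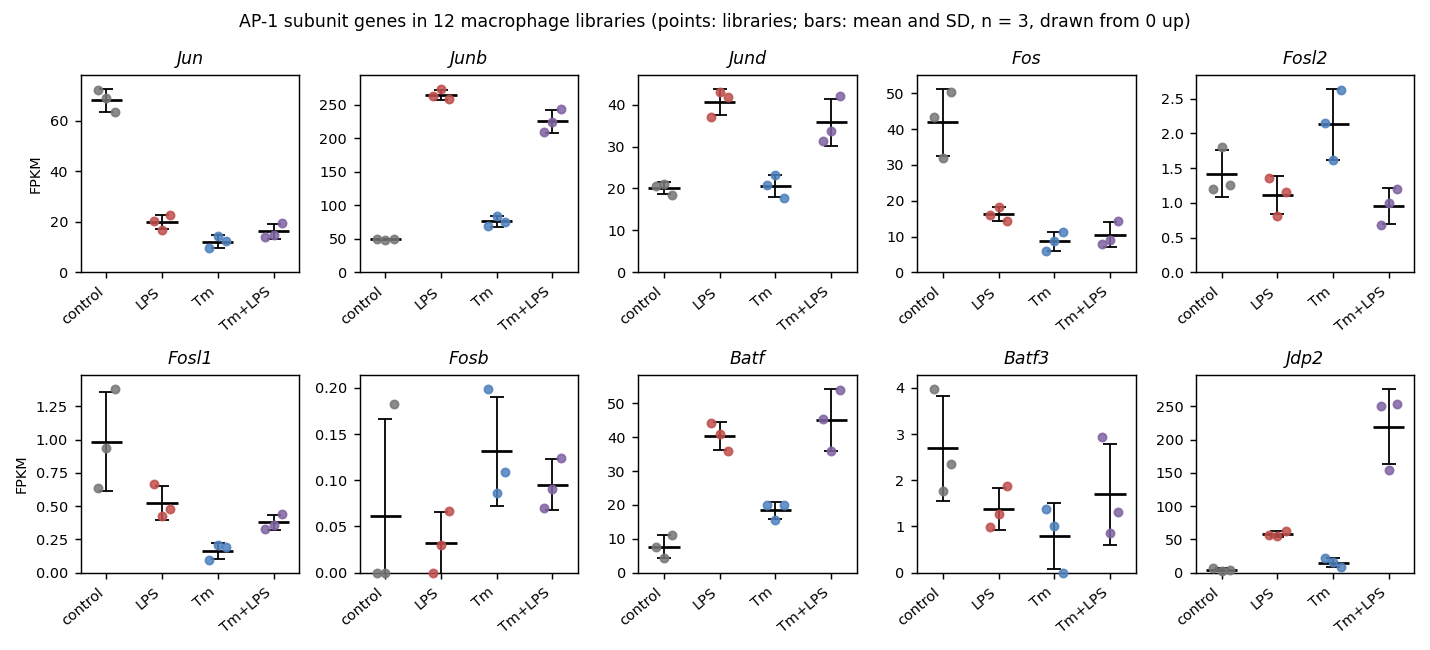
FPKM of the 10 AP-1 genes in each of the 12 libraries, with the mean and SD of the 3 libraries of a group; each panel has its own linear axis from 0. Jun and Fos were highest in control, while Junb, Batf and Jdp2 were lowest there, and Jdp2 with both agents (155 to 253 FPKM) stood above all its other libraries.

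Among the Jun genes, Jun itself (c-Jun, chromosome 4, 95049034 to 95052222, minus strand), the founding partner of Fos, was at 72.0, 68.9 and 63.3 FPKM in control. It was at 20.2, 16.9 and 22.8 with LPS, at 9.54, 14.5 and 12.3 with tunicamycin, and at 14.1, 14.9 and 19.7 with both. All control libraries lay above all treated ones, and the group with both agents overlapped each of the single-agent groups. Jun was 3.32-fold lower with LPS than in control (log2 -1.73 ± 0.17, limma adjusted p = 6.69e-07) and 5.33-fold lower with tunicamycin (log2 -2.41 ± 0.17, limma adjusted p = 1.76e-08). Tunicamycin left it 1.61-fold lower than LPS did (log2 -0.68 ± 0.17, limma adjusted p = 0.004). With both agents it lay between the single-agent groups, without a difference that passed from LPS (log2 -0.29, 95% interval -0.64 to 0.07) or from tunicamycin (log2 0.40, 95% interval 0.04 to 0.75, limma adjusted p = 0.129).

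Junb (chromosome 8, 84974484 to 84978718, minus strand), a Jun protein with a weaker transactivation domain that can hold back c-Jun, went the other way. Its libraries were at 49.4, 48.2 and 49.5 FPKM in control, 263, 273 and 258 with LPS, 68.9, 84.7 and 75.2 with tunicamycin, and 210, 224 and 243 with both. No group overlapped another. Junb rose 5.31-fold with LPS (log2 2.41 ± 0.09, limma adjusted p = 5.74e-12) and 1.54-fold with tunicamycin (log2 0.62 ± 0.09, limma adjusted p = 8.97e-05). With both it was 4.52-fold above control (log2 2.18 ± 0.09, limma adjusted p = 1.4e-11). Its level with both agents against LPS alone was log2 -0.23 ± 0.09 and did not pass (limma adjusted p = 0.076, 95% interval -0.43 to -0.03).

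Jund (chromosome 8, 70698949 to 70700616, plus strand), the Jun gene usually held at a steady level in resting cells, was at 20.6, 21.1 and 18.4 FPKM in control and at 20.7, 23.2 and 17.8 with tunicamycin. These groups overlapped, and the difference was log2 0.03 with a 95% interval of -0.26 to 0.33. With LPS it was at 37.0, 42.9 and 41.7 FPKM, and with both agents at 31.4, 33.8 and 42.2. LPS raised Jund 1.97-fold over control (log2 0.98 ± 0.14, limma adjusted p = 6.38e-05). Jund was 1.70-fold higher with both agents than with tunicamycin alone (log2 0.76 ± 0.14, limma adjusted p = 0.00107).

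The makeup of the Jun genes followed. Jun was the leading Jun gene in control with 49.6% ± 1.26 (SD, n = 3) of their summed FPKM, and Junb had 35.8% ± 1.66. With LPS, Junb had 81.4% ± 1.2 and Jun 6.14% ± 1. With tunicamycin the summed level of the Jun genes was 109 ± 12.1 FPKM, against 137 ± 5.49 in control, and Junb held 70% ± 1.21 of it. With both agents Junb held 81.3% ± 1.4 and Jun 5.81% ± 0.553. The shares with LPS and with both agents overlapped for all 3 Jun genes, while the summed level was 325 ± 6.98 FPKM with LPS and 278 ± 25.4 with both.

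**Figure D2:**
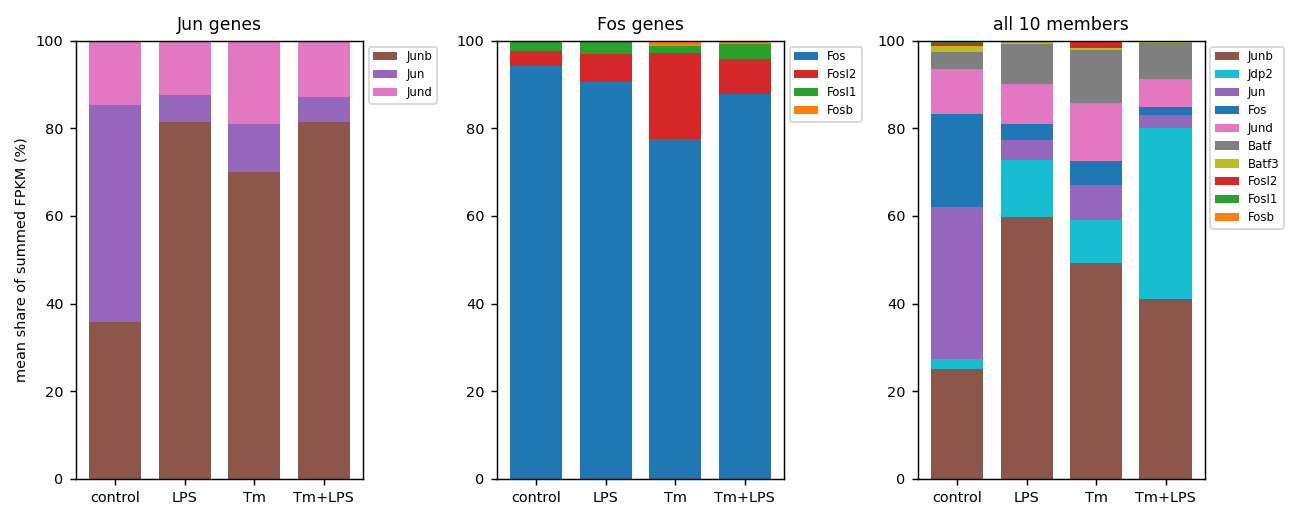
Mean share of summed FPKM (%) taken by each gene within the Jun genes, the Fos genes and all 10 members, for the 4 groups (n = 3). Jun leads the Jun genes in control (49.6%) and Junb in every treated group, and Jdp2 reaches 39.1% of all 10 members with both agents.

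Of the Fos genes, Fos (c-Fos, chromosome 12, 85473890 to 85477273, plus strand) made up 94.2% ± 1.95 of their summed FPKM in control. Fos was at 43.3, 31.9 and 50.3 FPKM in control, 16.1, 18.3 and 14.4 with LPS, 5.99, 8.82 and 11.2 with tunicamycin, and 8.04, 8.93 and 14.4 with both. Control stood above every treated library, the LPS and tunicamycin groups did not overlap, and the group with both agents overlapped them. Fos was 2.45-fold lower with LPS than in control (log2 -1.29 ± 0.23, limma adjusted p = 0.000627) and 4.48-fold lower with tunicamycin (log2 -2.16 ± 0.23, limma adjusted p = 2.65e-06). With both against LPS alone it was log2 -0.62 ± 0.23 (95% interval -1.12 to -0.13), which did not pass (limma adjusted p = 0.0537). That call sat at the threshold: over the alternatives run the adjusted p was 0.0132 to 0.182, and it passed without replicate 3 of Tm_LPS (log2 -0.86, limma adjusted p = 0.0132).

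Fosl2 (Fra-2, chromosome 5, 32135801 to 32157842, plus strand), a Fos protein without the transactivation domain of c-Fos, was low throughout. It was at 1.20, 1.81 and 1.25 FPKM in control, 1.36, 0.817 and 1.16 with LPS, 2.15, 1.61 and 2.62 with tunicamycin, and 0.683, 0.995 and 1.20 with both. The tunicamycin libraries were the highest and overlapped control only. No contrast of Fosl2 passed. The closest was both agents against tunicamycin alone (log2 -0.67 ± 0.23, limma adjusted p = 0.0593), and it passed with no filter (limma adjusted p = 0.0468, where 8.95% of genes passed) and without the trend term (limma adjusted p = 0.0199). Tunicamycin against LPS (log2 0.56 ± 0.23, limma adjusted p = 0.0657) also passed with no filter (limma adjusted p = 0.0493, where 23.2% of genes passed) and without the trend term (limma adjusted p = 0.0224). While Fos went down, the share of Fosl2 among the Fos genes was 19.7% ± 5.34 with tunicamycin, against 3.41% ± 1.56 in control.

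Fosl1 (Fra-1, chromosome 19, 5447547 to 5455946, plus strand) and Fosb (chromosome 7, 19302696 to 19310051, minus strand) did not pass the filter of 1 FPKM in 3 libraries. Fosl1 was at 0.638, 0.934 and 1.38 FPKM in control, 0.665, 0.430 and 0.477 with LPS, 0.0943, 0.204 and 0.195 with tunicamycin, and 0.332, 0.360 and 0.443 with both. The tunicamycin libraries lay below all others. In the fit with no filter, Fosl1 fell with tunicamycin (log2 -0.75 ± 0.12, limma adjusted p = 0.00169), where 21.1% of 15387 genes passed, and its change with LPS did not pass (log2 -0.37, limma adjusted p = 0.0994). In that fit Fosl1 was also lower with both agents than in control (log2 -0.51 ± 0.12, limma adjusted p = 0.0118), where 25.6% of genes passed. With tunicamycin it was lower than with LPS (log2 -0.39 ± 0.12, limma adjusted p = 0.0478), where 23.2% passed. Its other contrasts did not pass. Its gene body overlaps that of Ccdc85b on the other strand by 2767 bases, and Ccdc85b was at 2.97 to 3.89 FPKM in control and at 1.28 to 1.59 with tunicamycin. The sources used here do not say whether counting used strand, so reads of the overlap cannot be told apart. Fosb was at most 0.198 FPKM and listed at 0 in 3 libraries, too low for a comparison. The same unstated strand setting touches Junb, which overlaps Prdx2 by 351 bases, and Prdx2 was at 261 to 326 FPKM in control, 260 to 286 with LPS, 194 to 238 with tunicamycin and 172 to 203 with both. Jun, Jund and Jdp2 overlap the noncoding genes Junos, Gm11175 and Gm47863, which were not analysed here.

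Jdp2 (Jun dimerization protein 2, chromosome 12, 85599027 to 85639878, plus strand), which pairs with Jun proteins and is known as a repressor at AP-1 sites, had the widest range of the 10 in FPKM. Its libraries were at 6.43, 2.64 and 3.93 FPKM in control and at 57.3, 54.5 and 62.9 with LPS. With tunicamycin they were at 22.1, 15.6 and 7.81, and with both agents at 251, 155 and 253. No group overlapped another. Jdp2 rose 11.6-fold with LPS (log2 3.53 ± 0.30, limma adjusted p = 1.11e-07), 2.93-fold with tunicamycin (log2 1.55 ± 0.30, limma adjusted p = 0.0007) and 42.1-fold with both (log2 5.40 ± 0.30, limma adjusted p = 2.91e-10). In LPS-treated cells tunicamycin raised it 3.64-fold (log2 1.86 ± 0.30, limma adjusted p = 0.000193). Adding the separate mean increases to the control mean gives 69 FPKM. Multiplying the control mean by the separate folds of mean FPKM, taken without the added 1 of the folds above, gives 203 FPKM. The observed mean with both was 220 FPKM. On the log2 scale the interaction was 0.31 ± 0.42 (95% interval -0.58 to 1.20, limma adjusted p = 0.805). It was taken as the change from tunicamycin alone to both agents minus the change from control to LPS. Jdp2 went from 2.18% ± 0.863 of the summed FPKM of all 10 members in control to 39.1% ± 6 with both.

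Batf (chromosome 12, 85686669 to 85709087, plus strand), which lacks a transactivation domain and pairs with Jun proteins, often next to an IRF factor, was at 7.59, 4.28 and 11.0 FPKM in control, 44.3, 41.1 and 35.9 with LPS, 19.9, 15.5 and 19.9 with tunicamycin, and 45.5, 35.9 and 54.0 with both. Only LPS and both agents overlapped. It rose 5.05-fold with LPS (log2 2.34 ± 0.23, limma adjusted p = 8.96e-07) and 2.36-fold with tunicamycin (log2 1.24 ± 0.23, limma adjusted p = 0.000587). Tunicamycin made no difference that passed once LPS was present (log2 0.14, 95% interval -0.35 to 0.63). Of the IRF partners Irf4 did not pass the filter, and Irf8 went the other way from Batf with LPS, 2.02-fold lower (log2 -1.01 ± 0.12, limma adjusted p = 7.19e-06), and the same way with tunicamycin (log2 0.41 ± 0.12, limma adjusted p = 0.0141).

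Batf3 (chromosome 1, 191097847 to 191108945, plus strand), best known for its need in cross-presenting dendritic cells, was at 3.97, 1.77 and 2.35 FPKM in control, 0.980, 1.27 and 1.87 with LPS, 1.39, 1.00 and 0 with tunicamycin, and 2.93, 0.849 and 1.31 with both. It was lower with tunicamycin than in control (log2 -1.09 ± 0.35, limma adjusted p = 0.0234), a call that rested on single libraries: it was lost without control replicate 1 (log2 -0.85, limma adjusted p = 0.105) or tunicamycin replicate 3 (log2 -0.71, limma adjusted p = 0.139), and with no filter (limma adjusted p = 0.0675). With a pseudocount of 0.1 in place of 1 the Batf3 difference was log2 -2.27. The 7 dendritic cell markers summed to 1.51 to 4.94 FPKM in control, 5.54 to 11.9 with LPS, 1.62 to 4.03 with tunicamycin and 3.51 to 6.6 with both. Of these, Clec9a, which marks cross-presenting dendritic cells, was listed at 0 in all libraries of the control, LPS and Tm_LPS groups. Flt3 and Cd209a were listed at 0 throughout control and Tm_LPS, Ccr7 throughout control, and Xcr1 was at most 1.57 FPKM. Other values were not at 0. From control to LPS mean Xcr1 went from 0.29 to 1.36 FPKM, Ccr7 from 0 to 3.27 and Zbtb46 from 0.165 to 1.17. Mean Itgax was 2.67 FPKM in control and 2.56 with LPS. Of the 3 dendritic cell markers tested, 2 passed as higher with LPS and 1 did not pass, and with tunicamycin 0 passed. The part of dendritic cells in the Batf3 values was not tested.

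Set against the whole table, the family moved often with LPS. Of its 8 tested members 6 passed, 4 higher (Jdp2, Junb, Batf, Jund) and 2 lower (Jun, Fos), where 18.4% of the 10311 genes passed, 10.5% as higher and 7.86% as lower. Their median was log2 0.39, against 0.00 over all genes tested. With tunicamycin 6 of 8 passed, 3 higher (Jdp2, Batf, Junb) and 3 lower (Jun, Fos, Batf3), where 34.5% of genes passed (17.9% higher and 16.6% lower), with a median of log2 0.20 against 0.03. These comparisons share the control libraries. With both agents against control 6 of 8 passed, 4 higher and 2 lower, where 40.8% of genes passed, 20.7% higher and 20.2% lower (median log2 0.25 against 0.00).

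Between tunicamycin plus LPS and LPS alone, Jdp2 was the only member of the 8 that passed, where 28.9% of genes passed (13.8% as higher). The members' median was log2 -0.15 against 0.00. A further member, Fos, passed under 7 of the alternatives run. Tunicamycin plus LPS against tunicamycin alone gave 4 passing members of 8, all higher (Jdp2, Junb, Batf and Jund). There 15.7% of genes passed and 8.69% passed as higher (members' median log2 0.68 against -0.01). Between the single agents, 6 of 8 members passed as lower with tunicamycin than with LPS and 0 passed as higher, where 37.1% of genes passed, 19.6% as lower and 17.5% as higher (median log2 -0.91 against 0.01). Fosl2 lay the other way, at log2 0.56 ± 0.23 (95% interval 0.08 to 1.05) with groups that did not overlap, and passed as higher with tunicamycin only under the alternatives given above for it.

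**Figure D3:**
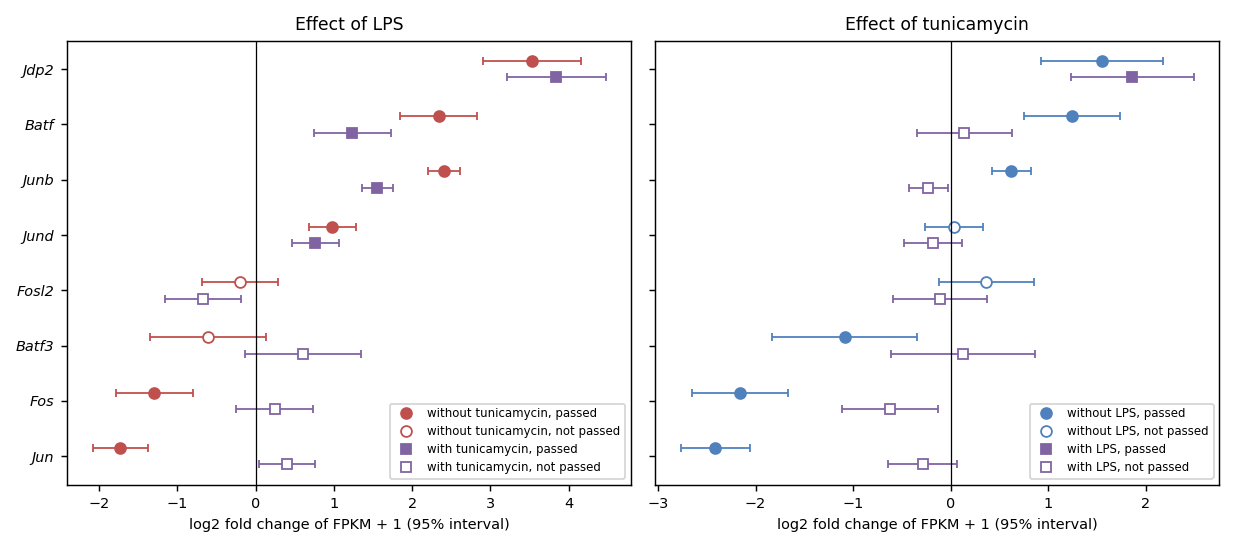
Log2 fold change of FPKM + 1 with its 95% interval for the 8 tested members, for LPS without and with tunicamycin (left) and for tunicamycin without and with LPS (right); filled symbols passed at an adjusted p under 0.05. Jun and Fos fell with LPS without tunicamycin (log2 -1.73 and -1.29) and lay at log2 0.40 and 0.24, not passing, with it, and Jdp2 rises in all 4 comparisons. LPS with tunicamycin is Tm_LPS against Tm, groups whose tunicamycin exposure times may differ.

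The interaction passed in 3 of the 8 members, Jun, Fos and Junb. Of all genes 3.37% passed it, 1.41% with a positive and 1.96% with a negative difference. The LPS effect with tunicamycin is here Tm_LPS against Tm. The exposure time of Tm is not given, so in that comparison tunicamycin time and LPS cannot be told apart. For Jun the LPS effect was log2 -1.73 without tunicamycin and log2 0.40 with it, a difference of log2 2.13 ± 0.24 (limma adjusted p = 5.03e-05). For Fos it was log2 -1.29 without and log2 0.24 with tunicamycin, a difference of log2 1.54 ± 0.33 (limma adjusted p = 0.0135) that did not pass with no filter (limma adjusted p = 0.0706), where 1.68% of genes passed. Junb rose with LPS in both settings, by log2 2.41 without and log2 1.55 with tunicamycin, a difference of log2 -0.85 ± 0.13 (limma adjusted p = 0.00104). Batf had a difference of log2 -1.10 ± 0.33 that did not pass (limma adjusted p = 0.0839) but passed without control replicate 3 (log2 -1.38, limma adjusted p = 0.0137). Of the other members, Batf3 (log2 1.22, 95% interval 0.17 to 2.26, limma adjusted p = 0.244, and log2 2.43 with a pseudocount of 0.1), Jund (log2 -0.22, 95% interval -0.64 to 0.20) and Fosl2 (log2 -0.48, 95% interval -1.16 to 0.21) did not pass, nor did Jdp2.

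Fos, Jdp2 and Batf are neighbours. In GENCODE M21 they are consecutive protein-coding genes on chromosome 12, all on the plus strand within 235 kb, with 122 kb between Fos and Jdp2 and 46.8 kb between Jdp2 and Batf. In this stretch Fos went down while Jdp2 and Batf went up with either agent. Of the 3 nearest protein-coding genes on each side, Nek9, Tmed10 and Ttll5 were tested. With LPS none of these 3 passed, while with tunicamycin Nek9, a mitotic kinase, was higher (log2 0.72 ± 0.19, limma adjusted p = 0.00685), Tmed10, a cargo receptor of the early secretory pathway, was lower (log2 -0.45 ± 0.09, limma adjusted p = 0.000822) and Ttll5 did not pass (log2 -0.34 ± 0.23, limma adjusted p = 0.278).

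Other bZIP factors, which can pair with AP-1 proteins or compete for related DNA sites, were described from a list of 25, all of them tested. With tunicamycin 12 rose, 3 fell and 10 did not pass, where 17.9% of all genes rose and 16.6% fell, and the median was log2 0.49 against 0.03 over all genes. Ddit3 (CHOP) rose 34.5-fold (log2 5.11 ± 0.15, limma adjusted p = 3.34e-13) to 1601 ± 145 FPKM, the repressor gene Nfil3 rose 6.96-fold (log2 2.80 ± 0.21, limma adjusted p = 4.56e-08), and Nfe2l1, which drives proteasome genes, rose 4.79-fold (log2 2.26 ± 0.11, limma adjusted p = 3.12e-10). Cebpg, a short C/EBP partner of ATF4, rose 3.22-fold (log2 1.69 ± 0.18, limma adjusted p = 2.69e-06), and Maf, a large Maf factor of mature macrophages, was 4.85-fold lower (log2 -2.28 ± 0.19, limma adjusted p = 1.74e-07). Atf3, a stress-induced repressor that pairs with Jun proteins, was at 126, 129 and 147 FPKM in control and at 221, 287 and 264 with tunicamycin (log2 0.93 ± 0.11, limma adjusted p = 5.67e-06). In control Atf3 thus stood above every AP-1 member per length, the highest of which was Jun at 68.1 ± 4.43 FPKM.

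With LPS the same 25 genes gave 7 rises, 4 falls and 14 not passed, where 10.5% of all genes rose and 7.86% fell, with a median of log2 -0.07 against 0.00. Cebpd, a C/EBP factor of the inflammatory response, rose 5.66-fold (log2 2.50 ± 0.18, limma adjusted p = 1.42e-08), Batf2, a Batf relative induced by interferon, 3.55-fold (log2 1.83 ± 0.36, limma adjusted p = 0.0016) and Nfe2l2 (NRF2), the antioxidant regulator, 2.68-fold (log2 1.42 ± 0.11, limma adjusted p = 3.29e-08). Cebpa, a C/EBP factor of myeloid differentiation, was 4.01-fold lower (log2 -2.00 ± 0.20, limma adjusted p = 1.18e-06). Of the close Batf relatives, Batf2 thus rose with LPS while its tunicamycin value was log2 -0.18 ± 0.36 (limma adjusted p = 0.749).

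**Figure D4:**
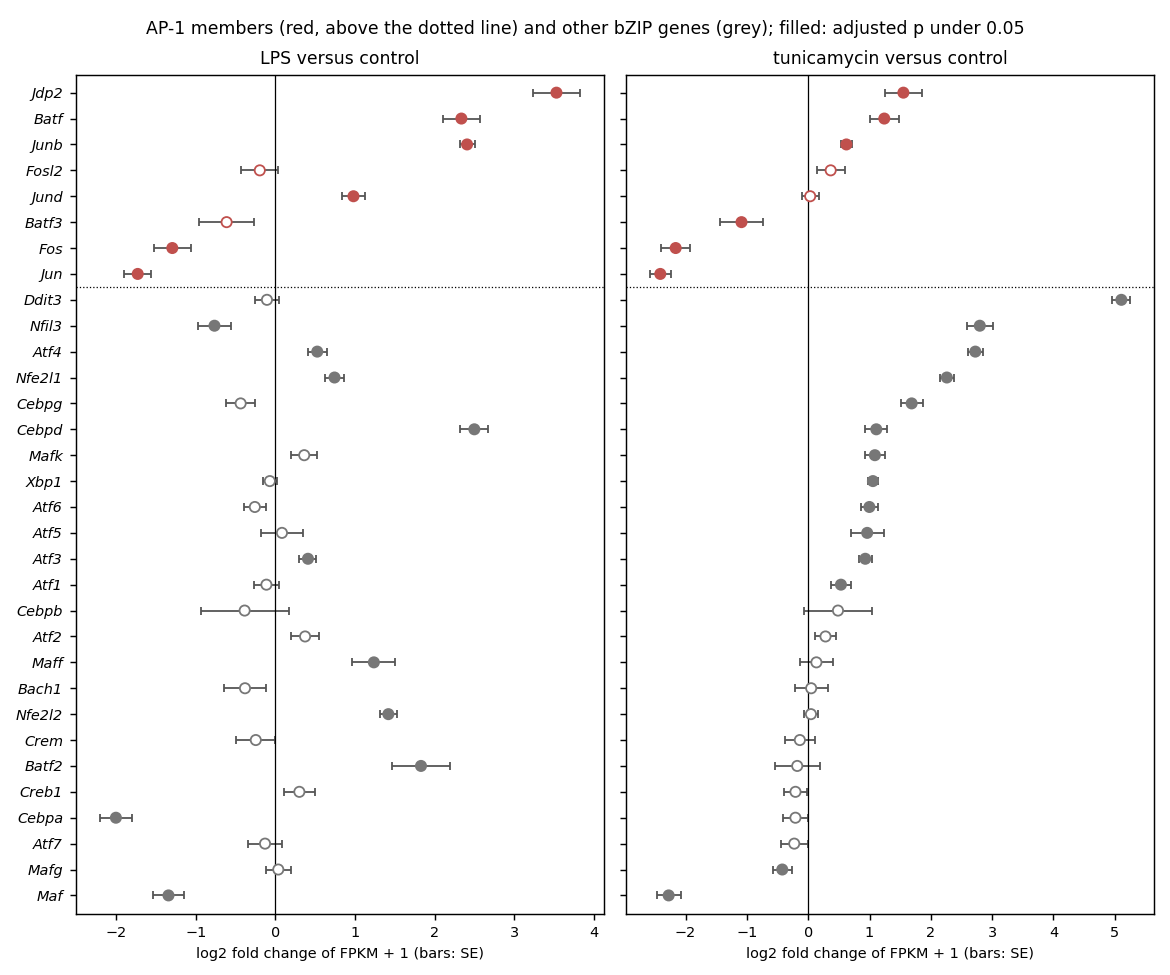
Log2 fold change of FPKM + 1 with its SE for the 8 tested AP-1 members (red) and for other bZIP genes of the list (grey, not all shown), for LPS and for tunicamycin, each against the same control libraries; filled points passed. The largest AP-1 value is Jdp2 with LPS (log2 3.53), and the largest of the other bZIP genes is Ddit3 with tunicamycin (log2 5.11).

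The kinases and factors that feed AP-1 were described from a further list. Of 29 listed MAP kinase pathway genes 28 were tested, and with LPS 2 rose, 4 fell and 22 did not pass, where 18.4% of all genes passed, with a median of log2 0.00 equal to that of all genes. Those that rose were Map3k8 (TPL2), the kinase that links TLR4 to ERK (log2 2.70 ± 0.22, limma adjusted p = 8.81e-08), and Mapkapk2, a kinase downstream of p38 (log2 1.25 ± 0.19, limma adjusted p = 0.000101). With tunicamycin 2 rose, 4 fell and 22 did not pass, where 34.5% of all genes passed (median log2 0.05 against 0.03). Map3k8 rose (log2 1.15 ± 0.22, limma adjusted p = 0.00077), as did Map3k5 (ASK1), a stress kinase upstream of JNK and p38 (log2 0.96 ± 0.28, limma adjusted p = 0.014). Mef2c (log2 -1.27 ± 0.21, limma adjusted p = 0.000167) and Elk3 (log2 -1.13 ± 0.21, limma adjusted p = 0.000468), transcription factors known to act at the Jun and the Fos promoter respectively, were lower. Map3k8 was the only gene of the list to pass the interaction (log2 -1.59 ± 0.31, limma adjusted p = 0.00763).

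Genes known as AP-1 targets, most of which also answer to NF-kB or other factors, were taken from a list of 31, of which 28 were tested. With LPS 15 rose, 2 fell and 11 did not pass, where 10.5% of all genes rose and 7.86% fell (median log2 0.89 against 0.00), with Icam1, an adhesion receptor, 17.4-fold higher (log2 4.12 ± 0.09, limma adjusted p = 4.68e-15). With tunicamycin 7 rose, 7 fell and 14 did not pass, where 17.9% of all genes rose and 16.6% fell (median log2 0.29 against 0.03). The urokinase gene Plau was 6.72-fold lower with tunicamycin (log2 -2.75 ± 0.29, limma adjusted p = 2.04e-06), its receptor gene Plaur 4.76-fold lower (log2 -2.25 ± 0.11, limma adjusted p = 3.22e-10) and the cyclin gene Ccnd1 6.01-fold lower (log2 -2.59 ± 0.29, limma adjusted p = 3.64e-06). Mmp14, a membrane-bound matrix protease, was 2.68-fold higher (log2 1.42 ± 0.15, limma adjusted p = 2.39e-06). With both agents against LPS alone 8 rose, 8 fell and 12 did not pass, where 13.8% of all genes rose and 15.1% fell (median log2 0.09 against 0.00), Plau (log2 -1.65 ± 0.29, limma adjusted p = 0.000429) and Ccnd1 (log2 -2.34 ± 0.29, limma adjusted p = 1.47e-05) again being lower.

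For each tested member the 3 most similar genes outside the family were taken by Pearson's r of log2(FPKM + 1) over the 12 libraries, which share their groups, so that r describes these libraries only. Junb was closest to Tnfaip2 (0.9955), Rhof (0.9951) and Cxcl10 (0.9933), genes highest with LPS and next with both agents. Jdp2 was closest to Ncf1 (0.9835), a subunit of the phagocyte NADPH oxidase, Rnf19b (0.9811) and Lcp2 (0.9805), each of which was highest with both agents. Jun was close to C5ar2 (0.9624) and Rasgrp3 (0.9581), and Fos to Fen1 (0.9513), Zfp710 (0.9492) and Ndst1 (0.9483), all highest in control. For Batf the closest were Stx11 (0.9767), Rhbdf2 (0.975) and Adgrl2 (0.9712), and for Jund Akap2 (0.9795), Fam20c (0.9794) and Kpna3 (0.9791). The low members had lower values, with Limk2 (0.9275) for Fosl2 and Atp13a3 (0.8729) for Batf3.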

How the data were processed

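The authors deposited 1 table of FPKM values with 24346 gene symbols and 12 library columns, each of which matches a sample by name. The submitters' processing notes name Cufflinks 2.2.1, TopHat2 2.0.13, SAMtools 0.1.19 and Bowtie2 2.2.3, with the build mm10. The annotation, the strand setting and how libraries were scaled to each other are not given in the sources used here. Median-of-ratios factors were 1.013 to 1.019, so the deposited FPKM were already level between libraries. Read counts could not be recovered, since at most 19% of genes below 0.3 FPKM lay within log2 0.02 of a common ratio.

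The filter asked for 1 FPKM or more in 3 libraries or more. In R 4.3.3, limma 3.58.1 (eBayes with trend) was fitted to log2(FPKM + 1) over all 12 libraries for 7 contrasts, with Benjamini-Hochberg adjustment over 10311 genes. The script was tested on simulated data. Members and lists (other bZIP genes, MAP kinase inputs, AP-1 targets, IRF partners and markers of 8 cell types) were chosen with earlier results of these data known. All members are named, with up to 6 passing genes per list and contrast by size of change. Coordinates are from GENCODE M21, which 23310 symbols match, and promoters from RefSeq on GRCm38.p6. Alternatives were a filter at 5 FPKM or none, quantile normalization or median-of-ratios scaling, a pseudocount of 0.1, a robust fit, a fit without trend, a replicate block, fits to the groups compared alone, and leaving out each library. Figures were drawn with matplotlib 3.10.9. Some genes that meet the rule for named genes are not reported here.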

Additional observations from a re-analysis of the deposited data

Results flagged for a closer look

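The interaction term of limma passed in 3 of the 8 tested members, where 3.37% of all genes passed. Of all genes 1.41% passed with a positive and 1.96% with a negative difference. The term is the change from Tm to Tm_LPS minus the change from control to LPS. The exposure time of Tm is not given, so tunicamycin time and LPS cannot be told apart in the first change. The difference was log2 2.13 for Jun (95% interval 1.63 to 2.63), which was lower with LPS alone and at log2 0.40 for LPS after tunicamycin, which did not pass. It was log2 1.54 for Fos (95% interval 0.84 to 2.23), which was lower with LPS alone and at log2 0.24 for LPS after tunicamycin, which did not pass. For Junb it was log2 -0.85 (95% interval -1.14 to -0.57). Junb was higher with LPS than in control, and by less with both agents than with tunicamycin alone. Jun and Fos had already gone down with tunicamycin alone, and those comparisons share the control libraries with the LPS comparison.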

How the results depend on the processing

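Of the 56 combinations of a tested member and a contrast, 46 kept their direction and their side of the threshold under all alternatives run. The number of members passing for tunicamycin plus LPS against LPS went from 1 to 2 with a filter at 5 FPKM, with quantile normalization and with the replicate block, the added member being Fos (limma adjusted p = 0.0434, 0.0497 and 0.0382). Over all genes 2978 of 10311 passed there in the main fit and 2820 of 7624 with the filter at 5 FPKM. With quantile normalization 2813 of 10311 passed, and with the replicate block 2993 of 10311. Leaving out 1 library gave 1 to 2 members there, 6 to 6 for LPS, tunicamycin plus LPS, each against control, and tunicamycin against LPS, 5 to 6 for tunicamycin against control, 4 to 4 for tunicamycin plus LPS against tunicamycin, and 3 to 4 for the interaction. Of 10311 genes, 2310 to 3034 then passed for tunicamycin plus LPS against LPS. Against control 1468 to 1976 passed for LPS, 2803 to 3677 for tunicamycin and 3721 to 4200 for both agents. For tunicamycin against LPS 3108 to 3953 passed, for tunicamycin plus LPS against tunicamycin 1068 to 1655, and for the interaction 228 to 352. Values that changed sign all belonged to comparisons that did not pass: Jund with tunicamycin against control (log2 -0.041 with quantile normalization, -0.024 without control replicate 3, -0.055 without tunicamycin replicate 2, and -0.055 to 0.13 over all left-out libraries), Junb with both agents against LPS (log2 0.013 with quantile normalization), Batf3 in that comparison (log2 -0.18 without replicate 1 of both agents, -0.18 to 0.36 over all left-out libraries) and the Jdp2 interaction (log2 -0.071 without tunicamycin replicate 3, -0.071 to 0.62 over all left-out libraries). Same-numbered libraries of different groups had correlations of their deviations of -0.0391 to 0.0945. No pairing by number was seen in these values, which cannot say whether same-numbered libraries share an origin. With the replicate block the Batf interaction also passed (log2 -1.10, limma adjusted p = 0.0408), and the block changed no other member's call. With quantile normalization the share of higher among all genes called went from 55.4% to 44.9% for tunicamycin plus LPS against tunicamycin, from 57.2% to 48% for LPS against control, from 47.1% to 53.5% for tunicamycin against LPS and from 50.6% to 44.1% for tunicamycin plus LPS against control. The cause of these changes was not tested. Read depth is unknown, so no counting error can be given for the low members Fosb, Fosl1, Fosl2 and Batf3, none of which was above 3.97 FPKM in any library.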
